A study of Rattus norvegicus with 12 samples.

Results

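The interaction of maternal gestational diabetes mellitus (GDM) with the weaning diet was measured in rat pancreatic islets as a difference of differences. For each gene, the effect of a high-fat and sucrose (HFS) weaning diet against a low-fat (LF) one in offspring of GDM dams (GDM-HFS minus GDM-LF) was taken on a log2 scale. The same effect in offspring of lean dams (Lean-HFS minus Lean-LF) was then subtracted. A positive value means that HFS weaning went with a higher level, relative to LF weaning, in offspring of GDM dams than in offspring of lean dams. All genes entered whatever their response: of 17407 gene entries in the deposited table, 12339 were tested, those whose scaled value averaged 1 or more across all 12 libraries.

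Islets were hand-picked from Sprague-Dawley rats of 15 weeks, after 12 weeks on the weaning diet. Lean dams ate an LF diet with 10% fat and GDM dams an HFS diet with 45% fat, from 6 weeks before mating through pregnancy and suckling, with 6 dams per diet and LF-fed sires. The 4 groups of 3 libraries were Lean-LF and Lean-HFS, then GDM-LF and GDM-HFS, named by dam and then by weaning diet. Below, lean families and GDM families mean the offspring of lean and of GDM dams. GDM was diet-induced, so maternal diabetes and the dam's own diet cannot be told apart. The sources used here give neither litter nor sex, and littermates may be among the libraries of a group. Every p therefore measures the spread among these libraries only.

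Islets are clusters of endocrine cells in the pancreas: insulin-secreting beta cells, glucagon-secreting alpha cells and rarer delta and PP cells. Fat- and sugar-rich feeding raises the demand on beta cells, and stressed islets can produce chemokines and interferon-response transcripts through the NF-kB and IRF/STAT transcription factors. An interaction asks whether an early exposure changes how the tissue meets such a diet later.

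Libraries held between 11469290 and 27492858 reads over genes. Beta cell transcripts defined the tissue: Ins1 and Ins2 took 29.9% ± 1.02, 31.1% ± 2.23, 28.9% ± 6.32 and 32.8% ± 1.37 of reads outside ribosomal RNA in the 4 groups, in the order just given (mean ± SD, n = 3 each). Residual ribosomal RNA took 14.5% ± 14.5, 31.7% ± 7.14, 7.97% ± 0.844 and 2.91% ± 1.29 of reads in that order, a difference of differences of -22.2 percentage points. Its part in the results was not tested beyond a fit that held the ribosomal RNA transcript Rn45s as a covariate. The level of 30 acinar markers (their mean log2 value) was 12.67 in GDM-LF 2 against 8.13 to 11.08 in the other 11 libraries, so values without that library are given beside several of the lists and genes below. Titles carry the letter K for libraries 1 and 2 of GDM-LF and library 3 of GDM-HFS, and G for the others. What the letter marks is not stated, and no lean library carries K.

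No gene's interaction passed the test. Of 12339 genes, 0 (0%) reached an adjusted p of 0.05 in limma with Benjamini-Hochberg adjustment, and the lowest adjusted p was 0.784. Without adjustment, 730 genes (5.92%) had p under 0.05, of which 305 (2.47%) were positive and 425 (3.44%) negative. Over all genes tested, 6067 interactions (49.2%) were positive and 6272 negative. These shares are the background for the list counts below. edgeR's quasi-likelihood test on the recovered reads also called 0 of 11563 genes (0%), with 778 (6.73%) under an unadjusted 0.05. DESeq2 called 0 of 15071 (0%), with 949 (6.3%) under 0.05. The genes described below are therefore given by their values, and none of them is a call. In most of the 730 genes under an unadjusted 0.05, the extreme mean was that of GDM-LF. Its mean was the lowest of the 4 groups in 250 (82.0%) of the 305 positive genes. It was the highest in 365 (85.9%) of the 425 negative ones. The interaction sets GDM-LF and Lean-HFS against Lean-LF and GDM-HFS. Genes picked for a positive value therefore tend to be lowest, and those for a negative value highest, in GDM-LF or Lean-HFS. These shares are thus partly fixed by the choice of genes and are a description only. Most GDM-LF libraries carry the letter K. The split of these 730 depended on scaling: on the deposited values without further scaling, 1654 genes were positive and 99 negative, and the median interaction of all genes was 0.42 in place of -0.01. Directions below are those on scaled values; without scaling the medians of the ribosomal protein, endothelial, clock, hypoxia, p53, cholesterol, delta and PP, Schwann, adipocyte and erythrocyte lists were above 0.

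The median standard error of an interaction was 0.379 on the log2 scale and the median 95% half-width 0.82, a factor of 1.76. The 95% interval lay wholly between -1 and 1 for 4760 genes (38.6%). For the remaining genes a 2-fold or larger difference between the diet effects was not bounded by these 12 libraries.

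The diet effects in the GDM and the lean families, which share no library, were nearly uncorrelated across genes. Pearson's r between them was -0.072 and Spearman's rho -0.059 over 12339 genes, which are not independent replicates. The effect had opposite signs in 6410 genes (51.9%). Its spread was wider in offspring of GDM dams, with an SD across genes of 0.489, than in offspring of lean dams, at 0.362. The median standard error of an interaction, 0.379, cannot be set against these spreads. An interaction is the difference between the diet effects, so its error is larger than that of either. Noise in groups of 3 lowers such a correlation, so the low values do not show that the diet response differs by dam. GDM-LF was also the group with the widest spread between libraries, with a median SD per gene of 0.35 against 0.28 in Lean-LF, 0.28 in Lean-HFS and 0.25 in GDM-HFS.

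**Figure D1:**
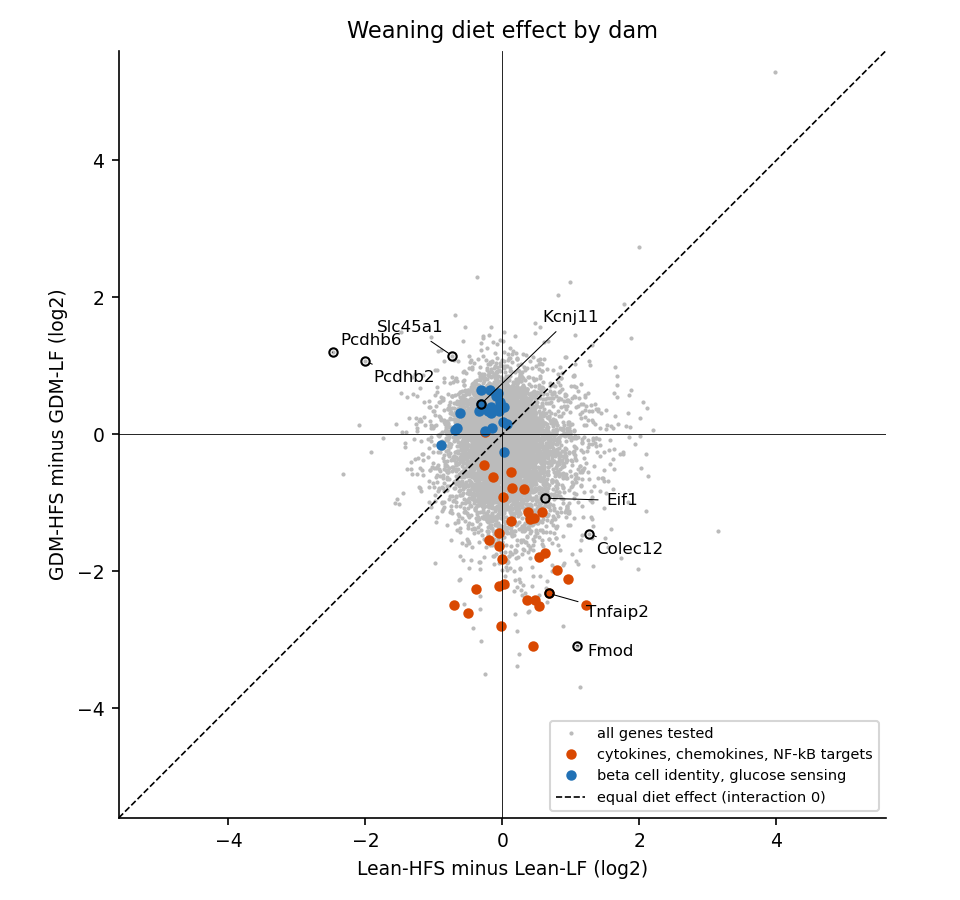
Effect of HFS against LF weaning on each of 12339 genes in offspring of lean dams (x axis, log2) and of GDM dams (y axis, log2). Grey points are all genes, orange points cytokine, chemokine and NF-kB target genes, blue points beta cell identity genes, and open circles the genes named. The dashed line marks equal effects. Orange points lie mostly below it and blue points mostly above it.

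A crossing pattern, with diet effects of opposite direction and no overlap between the diets within either dam group, was present in 58 genes (0.47%). Of these, 32 were higher with HFS in lean families and lower in GDM families, and 26 the reverse. With 3 libraries per group such separation also arises by chance, and the count was not tested against that. Where genes below have the pattern, it is a description only.

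Among positive interactions the lowest p belonged to Pcdhb6, a clustered protocadherin that mediates cell-cell recognition in neurons (rn5 chromosome 18, 30123238 to 30126600). Its scaled values were 7.72, 6.09 and 4.32 on LF and 0.896, 0 and 0 on HFS in lean families, and 2.63, 0.843 and 0.874 on LF and 4.27, 3.66 and 5.19 on HFS in GDM families. The diets did not overlap within either dam group, and they lay in opposite order. The interaction was 3.68 ± 0.65 (SE), with an adjusted p of 0.784 in limma. It rests on few reads, 0 to 2 per library in Lean-HFS and at most 29 elsewhere, and 2 libraries were at 0, so the fitted value depends on the pseudocount of 1.

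Pcdhb2, from the same cluster, had an interaction of 3.06 ± 0.75 (SE). Its scaled values were 3.73, 6.96 and 4.82 on LF and 0, 0.796 and 0.911 on HFS in lean families, and 1.51, 0.561 and 3.5 on LF and 4.27, 2.36 and 8.08 on HFS in GDM families. Lean-HFS lay below Lean-LF without overlap, while the GDM groups overlapped. Reads can be shared among near-identical protocadherin copies, so both values are uncertain.

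Slc45a1, a proton-coupled sugar transporter (rn5 chromosome 5, 171300141 to 171322391), was at 38.6, 43.1 and 42 in Lean-LF and at 22.9, 25.5 and 25 in Lean-HFS. It was at 9.41, 12.6 and 23 in GDM-LF and at 28.5, 29.7 and 39.8 in GDM-HFS. HFS went with lower values in every lean library and with higher values in every GDM one, an interaction of 1.88 ± 0.43 (SE).

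Anks1b, a synaptic scaffold gene, showed a different shape. It was at 79.3, 91.8 and 115 on LF and 50.6, 50.2 and 59.2 on HFS in lean families, and 147, 145 and 132 on LF and 128, 164 and 194 on HFS in GDM families. Here the lean diets stood apart and the GDM diets overlapped, with an interaction of 0.99 ± 0.28 (SE).

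Gne, the key enzyme of sialic acid synthesis, was at 157, 146 and 136 on LF and 104, 112 and 119 on HFS in lean families, and 88.1, 93.5 and 93.8 on LF and 133, 111 and 114 on HFS in GDM families. Each group of 3 was tight, and the diet order was opposite between dams, with an interaction of 0.76 ± 0.22 (SE). Pgm5, a phosphoglucomutase-related protein of cell junctions, had the same order and an interaction of 0.75.

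The other positive genes of lowest p were Napepld (1.17), which makes N-acylethanolamines, the CREB-induced kinase Sik1 (1.03), the ubiquitin ligase adaptor Asb1 (1.13), the nuclear transport factor Rangap1 (0.74), Lrrc10b (1.23) and Armc6 (1.22). Sik1 was at 275, 282 and 195 in Lean-LF and 246, 172 and 200 in Lean-HFS, which overlap. It was at 148, 129 and 123 in GDM-LF and 248, 179 and 254 in GDM-HFS, which do not. In all 6 genes the lowest group mean was that of GDM-LF. That is the common shape, found in 82.0% of all positive genes under the unadjusted threshold, and no trait of these 6.

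Among negative interactions the lowest p belonged to Eif1. This gene, a start-codon selection factor of translation (rn5 chromosome 10, 88020702 to 88022793), was at 624, 1144 and 569 in Lean-LF and 850, 1253 and 1384 in Lean-HFS. It was at 1170, 1017 and 1143 in GDM-LF and 664, 541 and 542 in GDM-HFS. GDM-HFS lay below GDM-LF without overlap, whereas the lean diets overlapped, and the interaction was -1.55 ± 0.35 (SE).

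Ube2a, an E2 ubiquitin-conjugating enzyme, had an interaction of -1.26 ± 0.30 (SE), Ube2d2, another E2 enzyme, -1.08 ± 0.28 and the deubiquitinase Usp3 -1.28 ± 0.33. Eif3j, a translation initiation subunit, had -0.95, and Rbm8a, a core protein of the exon junction complex, -1.55. Ube2d2 was at 182, 163 and 162 on LF and 199, 222 and 225 on HFS in lean families, and 353, 252 and 217 on LF and 182, 181 and 126 on HFS in GDM families, so its diet order was opposite between dams with no overlap. Eif1, Ube2d2 and Rbm8a have near-identical copies in mammalian genomes, so their read assignment is uncertain.

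Rragc, a RAG GTPase that carries amino acid signals to mTORC1, had an interaction of -1.19, and Ugcg, glucosylceramide synthase, -1.31. Ptpn12, a cytoplasmic tyrosine phosphatase, was at 147, 131 and 125 on LF and 151, 163 and 201 on HFS in lean families, and 253, 244 and 166 on LF and 124, 140 and 124 on HFS in GDM families. Its interaction was -1.09 ± 0.27 (SE), with opposite diet orders and no overlap within either dam group.

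Colec12, a scavenger receptor, had an interaction of -2.72 ± 0.67 (SE). It was at 1.06, 3.48 and 5.65 on LF and 8.07, 6.37 and 11.8 on HFS in lean families, and 17.7, 10.9 and 9.9 on LF and 4.27, 5.81 and 2.31 on HFS in GDM families. Fmod, a collagen-binding proteoglycan, had 0 reads in all 3 GDM-HFS libraries and scaled values of 29, 8.42 and 1.17 in GDM-LF. Its fitted interaction of -4.17 depends on the pseudocount and is no bound.

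**Figure D2:**
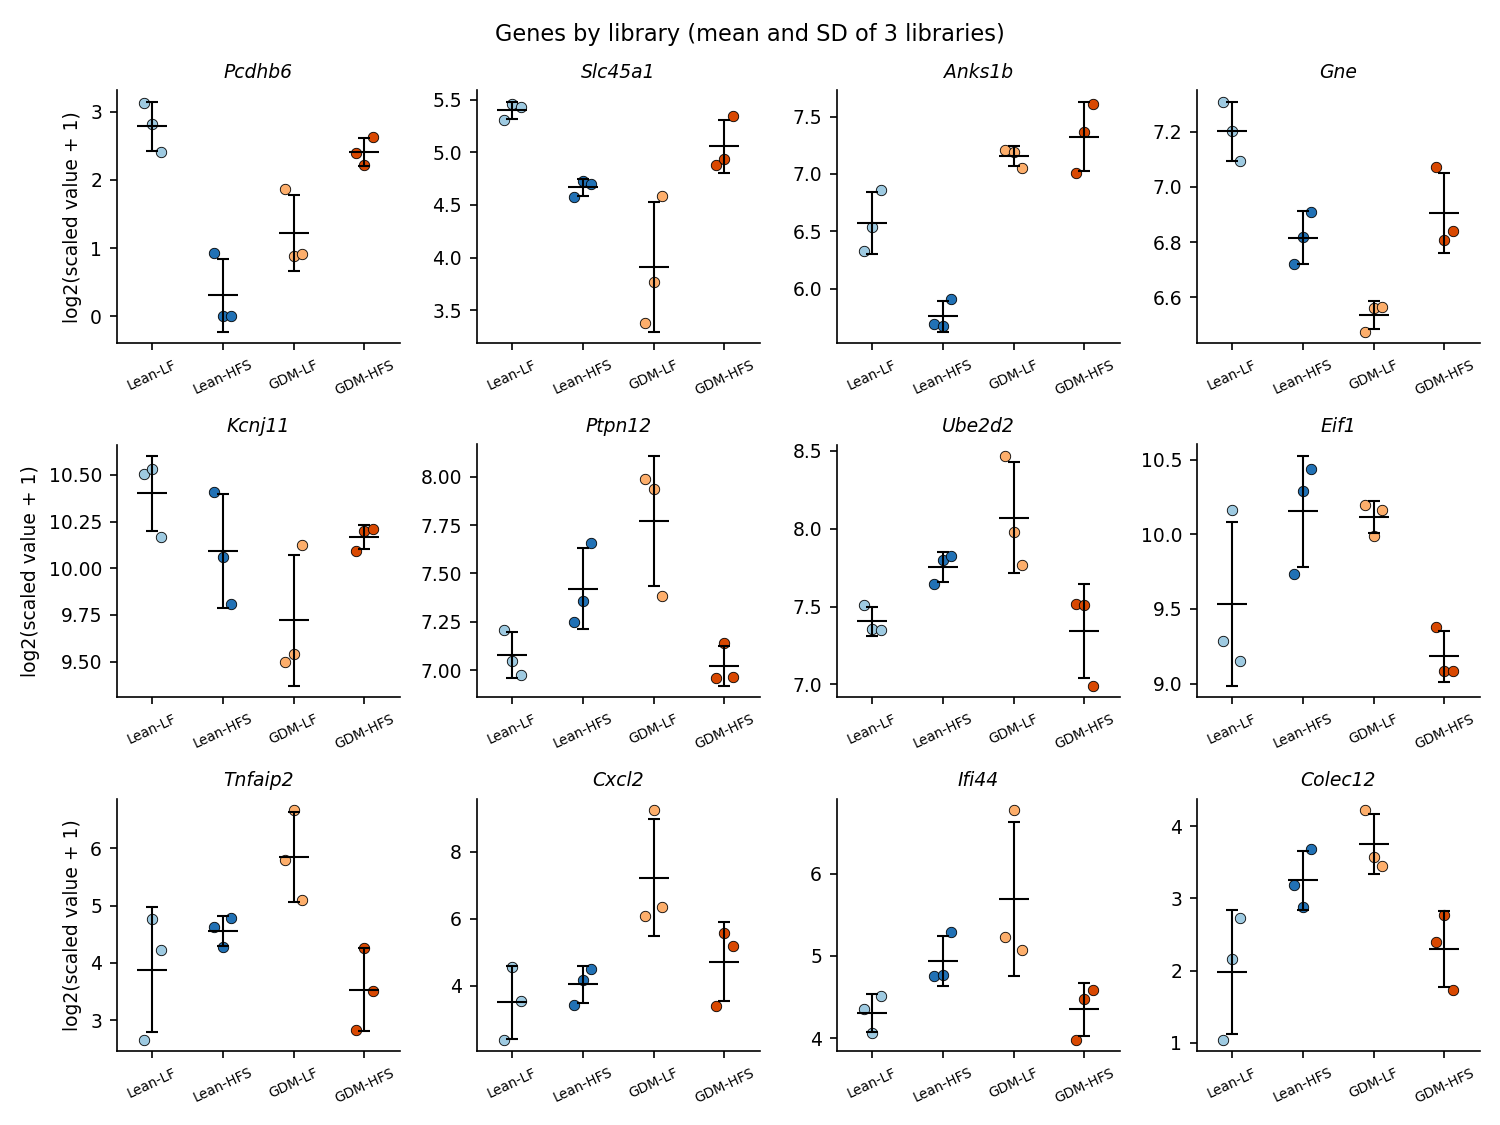
Values of 12 genes in each library, as log2(scaled value + 1), by group (x axis). Points are libraries, the bar is the mean and the whiskers the SD of 3 libraries. In Slc45a1, Gne, Ptpn12 and Ube2d2 the diet order is opposite between lean and GDM families, while in Cxcl2 and Tnfaip2 the GDM-LF libraries stand highest.

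Cytokines, chemokines and NF-kB targets formed the list with the most members under an unadjusted p of 0.05. Of 32 members tested, 31 had a negative interaction, and 19 had p under 0.05, all negative, against 3.44% of all genes. The members were chosen with earlier results of these data known, so this contrast is a description and no independent support. The median interaction was -1.80, against -0.01 over all genes. The median diet effect was 0.14 in offspring of lean dams and -1.76 in offspring of GDM dams. Mean list levels (log2) were 4.58 ± 0.41 on LF and 4.78 ± 0.52 on HFS in lean families, and 6.64 ± 1.17 on LF and 4.95 ± 0.32 on HFS in GDM families (SD, n = 3). The 3 GDM-LF libraries stood at 6.20, 7.96 and 5.75, all above the 9 others.

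Promoters of chemokine genes are known to hold NF-kB sites. In the 250 bases before the gene start (RefSeq promoters, build GRCr8), the NF-kB consensus was searched by letters on both strands. It was present in 11 of the 23 list promoters in the RefSeq table, in 4 of 22 promoters of the interferon list and in 3.54% of all 33465 promoters. The members of this list were picked as cytokines, chemokines and NF-kB targets. Its share of matches is therefore partly fixed by that choice and says nothing about the interaction. Cxcl1 (chr14:17479322-17479571, minus strand) and Cxcl2 (chr14:17467256-17467505, minus strand) encode neutrophil-attracting chemokines. They are printed because both sit in this list and have the match in capitals, where 2 overlapping matches run together. A match is a description of letters and not a measured binding site.
Cxcl1: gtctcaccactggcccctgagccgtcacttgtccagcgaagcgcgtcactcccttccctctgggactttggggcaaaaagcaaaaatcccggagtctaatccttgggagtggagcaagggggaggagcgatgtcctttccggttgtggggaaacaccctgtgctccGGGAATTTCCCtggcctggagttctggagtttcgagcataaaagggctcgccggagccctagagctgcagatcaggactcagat
Cxcl2: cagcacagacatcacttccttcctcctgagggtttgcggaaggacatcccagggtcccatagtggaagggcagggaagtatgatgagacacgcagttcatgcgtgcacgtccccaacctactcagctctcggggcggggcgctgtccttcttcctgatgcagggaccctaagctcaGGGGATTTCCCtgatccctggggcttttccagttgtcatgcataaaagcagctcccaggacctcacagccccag

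Cxcl2 was at 4.26, 22.6 and 10.8 on LF and 9.86, 17.1 and 21.9 on HFS in lean families, and 67, 610 and 81 on LF and 9.44, 46.9 and 35.8 on HFS in GDM families. All 3 GDM-LF libraries lay above the other 9, and GDM-LF 2 far above the rest. The interaction was -3.05 ± 1.13 (SE) and -2.04 without GDM-LF 2.

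Cxcl1 stood at 181, 1823 and 176 in GDM-LF against 10.4 to 150 elsewhere, and Ccl2, which attracts monocytes, at 1100, 6321 and 404 against 53.8 to 888. Their interactions were -2.89 ± 1.32 and -2.77 ± 1.21 (SE), and -1.77 and -1.69 without GDM-LF 2. Ccl2 thus overlapped between GDM-LF and GDM-HFS.

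Tnfaip2, a TNF-induced gene, had the lowest p of the list. It was at 5.33, 26.1 and 17.8 on LF and 23.7, 18.3 and 26.4 on HFS in lean families, and 54.6, 101 and 33.2 on LF and 6.07, 18.3 and 10.4 on HFS in GDM families. The interaction was -3.00 ± 0.76 (SE) and -2.59 without GDM-LF 2. The interleukin gene Il1a was at 9.41, 49.4 and 7.28 in GDM-LF and between 0 and 4.1 elsewhere, with an interaction of -3.54 ± 1.16 (SE), or -2.72 without GDM-LF 2.

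Without GDM-LF 2, 7 members were under an unadjusted 0.05, in a fit with 667 of 12339 genes under it, 435 of them negative. Of the 32 members, 29 were then negative, with a median of -1.21. Without the 3 K libraries 27 were negative and the median was -0.89, from 1 GDM-LF and 2 GDM-HFS libraries. In bulk islets, more cells of a type that makes these transcripts and more transcript per cell cannot be told apart.

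Interferon response genes, which encode antiviral and antigen-processing proteins, had the same sign. Of 31 members, 28 were negative and 7 had p under 0.05, all negative, against 3.44% of all genes. The median interaction was -0.92. List levels in GDM-LF were 5.87, 7.71 and 5.65, against 4.67 to 5.53 in the other 9 libraries. Without GDM-LF 2 the median was -0.31, with 24 members negative. An interferon response element core (GAAA, any 2 bases, then GAAA, on either strand) was searched in the same way. It was present in 14 of 22 list promoters, in 2 of 23 promoters of the cytokine list and in 3.41% of all promoters. The members were picked as interferon response genes, so this share is partly fixed by that choice and says nothing about the interaction. Ifi44 (chr2:243303841-243304090, minus strand) and Oasl2 (chr12:47383186-47383435, minus strand) are printed as examples, with the match in capitals as it reads on the gene strand. Bst2 and Irf7 are among the other list members with a match.
Ifi44: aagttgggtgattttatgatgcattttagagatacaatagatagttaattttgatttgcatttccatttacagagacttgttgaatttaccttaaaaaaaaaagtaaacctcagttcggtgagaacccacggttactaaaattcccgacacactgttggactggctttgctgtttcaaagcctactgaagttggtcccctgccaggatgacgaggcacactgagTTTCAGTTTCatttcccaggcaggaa
Oasl2: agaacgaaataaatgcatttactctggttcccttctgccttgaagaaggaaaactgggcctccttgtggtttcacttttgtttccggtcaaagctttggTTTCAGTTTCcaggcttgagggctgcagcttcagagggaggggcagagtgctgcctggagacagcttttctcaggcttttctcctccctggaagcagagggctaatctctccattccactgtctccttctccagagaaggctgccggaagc

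Ifi44, an interferon-induced antiviral gene, was at 19.4, 15.7 and 21.8 on LF and 26, 26.3 and 38.2 on HFS in lean families, and 36.5, 108 and 32.6 on LF and 14.8, 21.3 and 23.1 on HFS in GDM families. The diets did not overlap in either dam group and had opposite orders, and the interaction was -1.97 ± 0.56 (SE), or -1.43 without GDM-LF 2.

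Oasl2, of the oligoadenylate synthetase family, had an interaction of -2.10 and Bst2, which tethers budding virus, -2.82, or -1.53 and -2.19 without GDM-LF 2. Irf7, the factor that amplifies interferon expression, was at 67, 491 and 43.7 in GDM-LF and at 14.2, 35.3 and 46.7 in GDM-HFS, with an interaction of -2.0 that was -0.95 without GDM-LF 2. Isg15, a ubiquitin-like modifier, went from -2.01 to -0.78 in the same way.

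Immediate early genes, the first transcripts after a stimulus, were negative in 24 of 28 members, with a median of -1.07. Under an unadjusted 0.05 were 4 members, 3 of them negative, against 3.44% negative over all genes. Their level was 8.02 in GDM-LF 2 and 5.81 to 6.32 in the other 11 libraries, and without GDM-LF 2 the median was -0.35 and 16 of 28 were negative. Ier3, an NF-kB-responsive survival gene, was at 389, 839 and 304 in GDM-LF and at 124 to 276 elsewhere, with an interaction of -1.23 (-0.80 without GDM-LF 2). The orphan receptor Nr4a3 had -1.62 and the MAP kinase phosphatase Dusp1 -1.07, which were -1.25 and -0.80 without it.

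Cell cycle genes were negative in 31 of 37, with a median of -0.62. All 3 members under an unadjusted 0.05 were negative, against 3.44% of all genes. Cdk6, a G1 kinase, was at 2.4, 2.61 and 1.5 on LF and 8.51, 3.98 and 8.65 on HFS in lean families, and 8.28, 19.4 and 4.08 on LF and 5.17, 2.8 and 2.31 on HFS in GDM families, and its interaction was -2.51 ± 0.73 (SE). The mitotic genes Ccnb1 (-1.67) and Plk1 (-1.48) had opposite diet orders between dams without overlap, at values of at most 20.3 and, for Plk1 in lean families, a gap as small as 2.66 against 2.69. GDM-LF 1 had the highest list level, 5.29, against 4.04 to 4.65 elsewhere, and without it the median was -0.44. Without the K libraries it was -0.19, with 21 of 37 negative.

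Genes of dedifferentiation or disallowed in beta cells, a set kept low in mature beta cells, were negative in 19 of 20. The median was -0.91, and 2 members, negative in sign, were under an unadjusted 0.05, against 3.44% of all genes. Sox9, a progenitor and duct factor, was at 48.9, 17.1 and 14.3 in GDM-LF and 5.62, 4.73 and 3.46 in GDM-HFS, with an interaction of -2.36 ± 0.85 (SE). The hyaluronan receptor Cd44 had -1.40, with 880 in GDM-LF 2, and -0.84 without that library. The list median was -0.49 without Lean-HFS 3. Without the K libraries 11 of the 20 members were negative and the median was -0.11.

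Several lists of markers of other cell types had the same sign. Stellate cell and fibroblast markers were negative in 18 of 19, with a median of -1.19. Under an unadjusted 0.05 were 4 members, all negative, against 3.44% of all genes. The list level was 8.30 in GDM-LF 1 against 5.45 to 6.72 in the other 11 libraries. Without GDM-LF 1 the median was -0.27. Timp1, a metalloproteinase inhibitor, was at 2765, 3228 and 1774 in GDM-LF and 1715, 1326 and 1563 in GDM-HFS, with an interaction of -1.19 ± 0.33 (SE) that was -1.12 without GDM-LF 1. The matrix proteoglycans Lum and Dcn had -2.55 and -1.98, and Lum was -1.51 without GDM-LF 1.

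Duct markers were negative in 14 of 15 with a median of -0.91, and Epcam, an epithelial adhesion gene, had -0.91. Without GDM-LF 2 the median was -0.42 with 10 of 15 negative, and Epcam -0.52. Without GDM-LF 3 the median was -1.43, and without the K libraries 0.01. Duct marker level was 7.28, 8.32 and 6.26 in GDM-LF against 5.71 to 7.44 elsewhere. Acinar markers were negative in 22 of 30 with a median of -0.46, which was 0.97 without GDM-LF 2 and -1.16 without GDM-LF 3. Prss1, a trypsinogen, was at 6152, 100089 and 5929 in GDM-LF and 17840 to 46147 in GDM-HFS, with an interaction of -0.04 that was 1.31 without GDM-LF 2. The acinar trypsin inhibitor Spink3 had -2.04 and Reg1a, of the acinar Reg family, -2.13, which were -0.75 and -0.77 without it.

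Macrophage markers were split 10 to 10 with a median of 0.06, a value that depended on single libraries: it was -0.76 without GDM-LF 1 and 1.03 without GDM-HFS 3. Their level ranged from 1.40 in GDM-HFS 3 and 2.38 in GDM-LF 1 to 4.92 in Lean-HFS 3. The monocyte receptor Cd14 had -2.65, with 106 in GDM-LF 2 and 1.15 in GDM-HFS 3. Endothelial markers were negative in 15 of 18 with a median of -0.36, which was -0.07 without Lean-HFS 3 and -0.62 without GDM-HFS 2, and the vascular sialomucin Emcn had -1.53. All 4 Reg family genes were negative, with a median of -1.86 (-0.62 without GDM-LF 2, -3.01 without GDM-LF 3 and 0.98 without the K libraries). The remaining marker lists had medians between -0.90 (T and B lymphocytes, 6 members) and -0.17 (Schwann cells, 8 members), with none of their members under an unadjusted 0.05. Leaving out 1 library turned the sign of 3 of these 5 medians, to 0.37 for MHC class II genes (without GDM-HFS 3), 0.58 for erythrocyte markers (without GDM-LF 2) and 0.03 for Schwann cell markers (without Lean-HFS 1). The part of these cells in the inflammatory and matrix values was not tested.

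**Figure D3:**
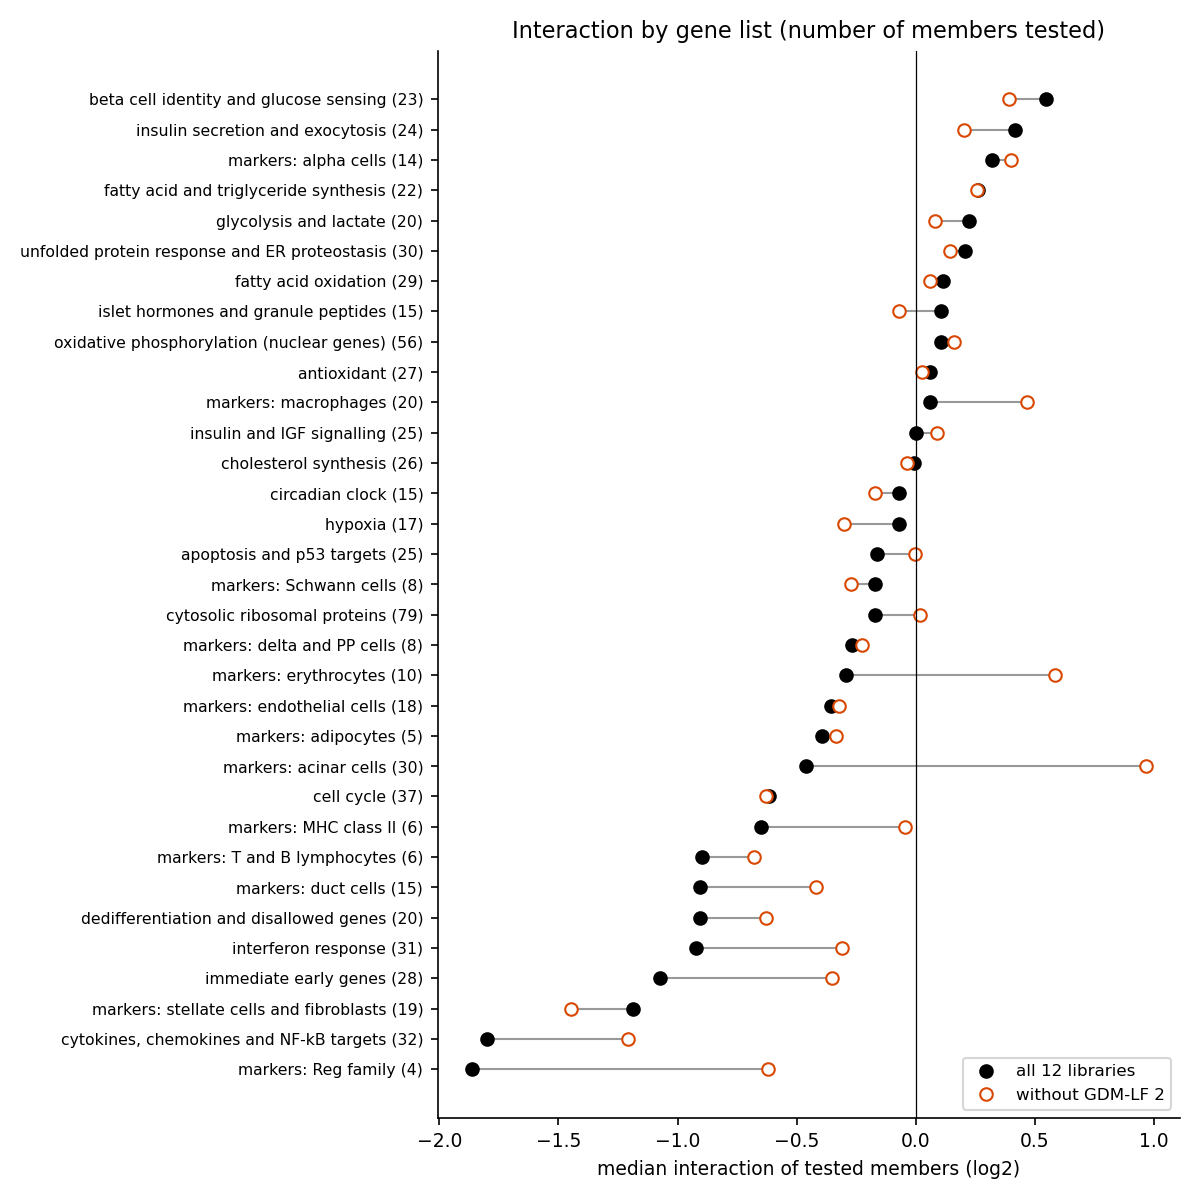
Median interaction (x axis, log2) of the tested members of each gene list, with their number in brackets. Black points are the fit with all 12 libraries and open orange points the fit without GDM-LF 2. Inflammatory, interferon, immediate early, matrix and duct lists lie below 0 and beta cell lists above it, and the acinar median changes from -0.46 to 0.97.

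Beta cell identity and glucose-sensing genes had the opposite sign. Of 23 members, 22 were positive and 3 had p under 0.05, all positive, against 2.47% of all genes. These members, too, were chosen with earlier results known, so the contrast is a description only. The median interaction was 0.55. The median diet effect was -0.16 in offspring of lean dams and 0.34 in offspring of GDM dams. Levels were 9.31 ± 0.20 on LF and 9.08 ± 0.30 on HFS in lean families, and 8.64 ± 0.37 on LF and 8.93 ± 0.15 on HFS in GDM families (SD, n = 3). Within GDM-LF they were 8.63, 8.27 and 9.0, and GDM-LF 3 lay among the GDM-HFS libraries. Without GDM-LF 2 the median was 0.39 with 20 members positive, and without the K libraries 0.29 with 18 positive. With Rn45s as a covariate it was 0.88, with 14 members under an unadjusted 0.05. Over all genes that fit had 1561 of 12339 under 0.05, 838 of them positive, so the 2.47% above is not its background.

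Kcnj11, the pore of the ATP-sensitive potassium channel, was at 1449, 1476 and 1150 on LF and 1359, 1066 and 894 on HFS in lean families, and 723, 745 and 1116 on LF and 1092, 1176 and 1182 on HFS in GDM families. Its interaction was 0.75 ± 0.29 (SE), with a 95% interval of 0.14 to 1.37 and overlap between diets in both dam groups. Ffar1, the fatty acid receptor that augments insulin secretion, had 0.93 ± 0.38. The transcription factors Pdx1 (0.55 ± 0.34) and Nkx6-1 (0.50 ± 0.52), which maintain beta cell identity, had intervals that included 0, and Nkx6-1 was 0.03 without GDM-LF 2.

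Insulin secretion and exocytosis genes were positive in 21 of 24, with a median of 0.42. The 2 members under an unadjusted 0.05 were positive, against 2.47% of all genes. Rab27a, a GTPase that docks granules, was at 829, 793 and 782 on LF and 867, 647 and 679 on HFS in lean families, and 462, 468 and 805 on LF and 796, 895 and 727 on HFS in GDM families. GDM-LF 1 and 2 were low and GDM-LF 3 was not, and the interaction was 0.67 ± 0.29 (SE). Syt13, a synaptotagmin of islet cells, had 0.62. Without GDM-LF 2 the list's median was 0.20 with 16 positive, and with Rn45s as a covariate 0.78 with 11 under an unadjusted 0.05. The Rn45s fit had 1561 of 12339 genes under 0.05, 838 of them positive. Without the K libraries the list's median was 0.15, also with 16 members positive, and Rab27a was at 0.21.

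**Figure D4:**
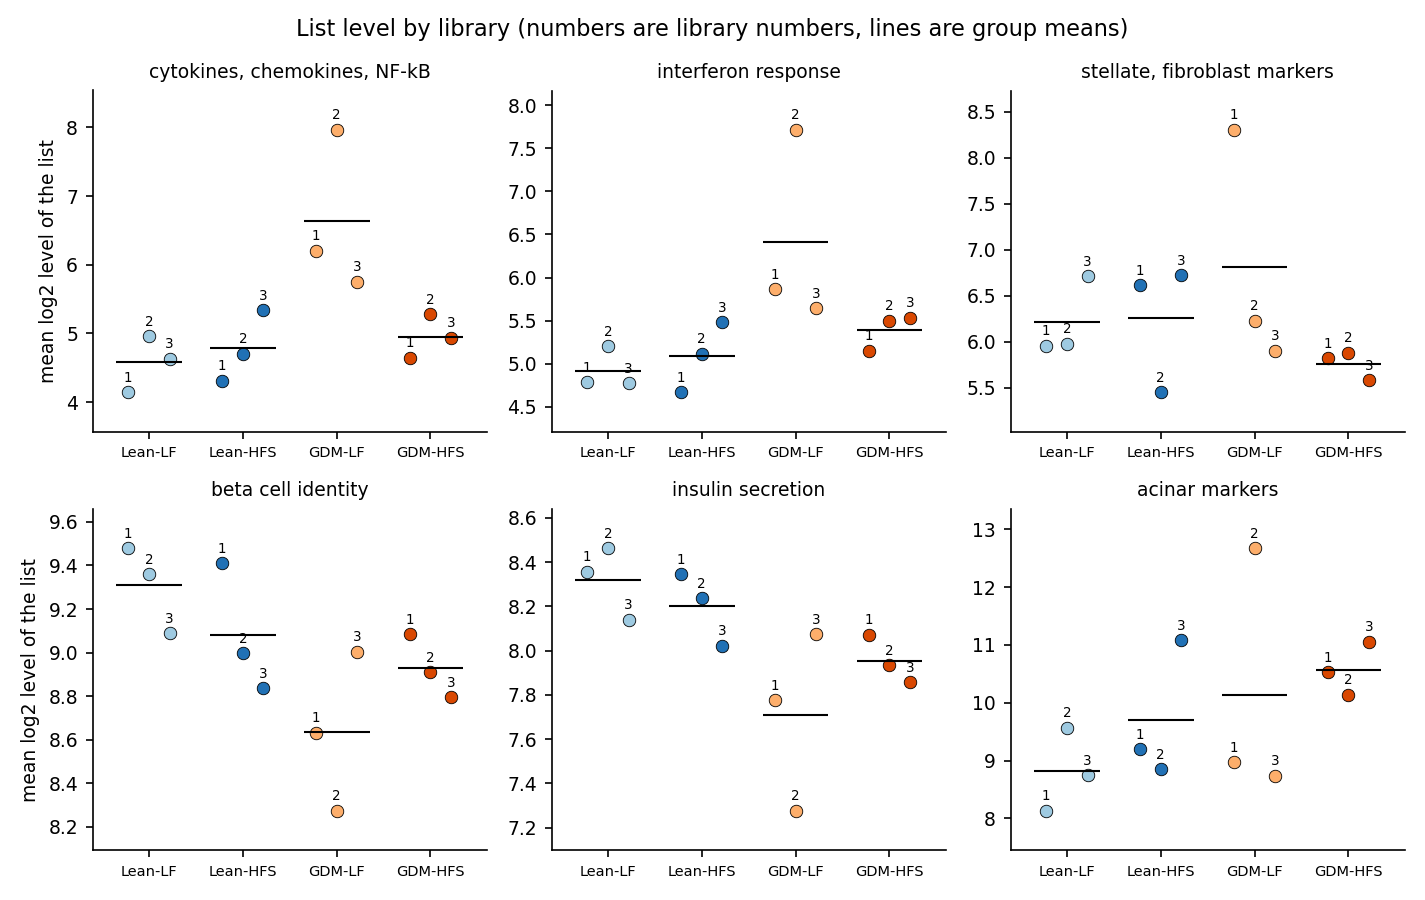
Mean log2 level of 6 gene lists (y axis) in each library by group (x axis). Points carry the library number and lines are group means. GDM-LF 2 is highest for cytokine, interferon and acinar genes and lowest for beta cell and secretion genes, and GDM-LF 1 is highest for stellate and fibroblast markers.

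Of 15 hormone and granule genes, 10 were positive and none had p under 0.05, with a median of 0.11. The sign of the median turned to -0.07 without GDM-LF 2, with 9 of 15 negative, and to -0.15 without the K libraries, with 11 negative. The paired rat insulin genes Ins1 and Ins2 had interactions of 0.22 and 0.15. Their SE was 3.72 and 2.38 from the mean-variance trend at such high levels, and 0.267 and 0.277 without the trend. Ins2 was at 442475, 482282 and 391347 on LF and 500851, 586195 and 478876 on HFS in lean families, and 421632, 375899 and 513883 on LF and 530138, 494994 and 712221 on HFS in GDM families, overlapping in both dam groups.

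Gcg, encoding glucagon, had 0.88 ± 0.97 (SE), Sst, somatostatin, -0.49 ± 0.47 and Iapp, amylin, -0.14 ± 0.50. Ppy, pancreatic polypeptide, had -1.13 ± 0.79 and ranged from 5459 to 18009 within GDM-LF. The prohormone convertase Pcsk2 and the granin Chga each had 0.62. Alpha cell markers were positive in 9 of 14 with a median of 0.32, which was 0.03 without GDM-HFS 3 and -0.07 without the K libraries. The lowest of the 5 negative ones was Dpp4, a peptidase, at -3.19 ± 0.94. Delta and PP cell markers were negative in 5 of 8 with a median of -0.27 (0.01 without Lean-HFS 2), and the delta cell factor Hhex had -1.41.

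Stress and metabolism lists had medians between -0.17 and 0.26. Unfolded protein response genes, which restore folding in the endoplasmic reticulum, were positive in 21 of 30 with a median of 0.21. The 1 member under an unadjusted 0.05 was negative, against 3.44% negative over all genes. The list's median was 0.09 without GDM-LF 1 and -0.06 without the K libraries. Hspa5, its main chaperone, was at 8611, 9866 and 18633 in GDM-LF and 12885 to 21580 in GDM-HFS, with 0.63 ± 0.51 (SE). The chaperones Hyou1 and Dnajb11 had 0.76 and 0.36, the disulfide isomerase Pdia3 -1.08 and Ddit3, the stress factor CHOP, 0.19 ± 0.44.

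Oxidative phosphorylation genes were positive in 40 of 56 with a median of 0.11. The 1 member under an unadjusted 0.05 was negative, against 3.44% negative over all genes. The sign of the list's median turned with Rn45s as a covariate, to -0.23 with 43 of 56 negative, and without Lean-LF 3, to -0.06. The ATP synthase subunits Atp5j and Atp5g1 had -0.89 and 0.67, and Sdha, of complex II, 0.36. Cytosolic ribosomal proteins were negative in 65 of 79 with a median of -0.17, which was 0.02 without GDM-LF 2 and 0.27 without further scaling, with none under an unadjusted 0.05. It was -0.42 without Lean-LF 3 and, with Rn45s as a covariate, -0.72 with 78 of 79 negative and 27 under an unadjusted 0.05. The Rn45s fit had 1561 of 12339 genes under 0.05, 723 of them negative. Rpl28 had -0.97, Rpl23a -0.48 and the paralog Rpl39l 2.16 ± 1.17, at values of at most 20.2; ribosomal protein genes have many processed copies, so their read assignment is uncertain.

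Glycolysis genes were positive in 13 of 20 with a median of 0.22, or 0.06 without Lean-HFS 1 and 0.08 without GDM-LF 2. Eno2, an enolase, had 0.92, Pfkl, the liver-type phosphofructokinase, 0.59 and Ldha, which makes lactate, -0.65 ± 0.46. Hk2, a high-affinity hexokinase that is low in mature beta cells, was at 87.7, 117 and 63.5 in GDM-LF against 23.7 to 53.5 elsewhere, with -0.92 ± 0.44 (SE). Hypoxia genes were negative in 10 of 17 with a median of -0.07, which ran from -0.30 without GDM-LF 2 to 0.06 without GDM-LF 3. The hypoxia factor Hif1a had -0.76, the mTORC1 inhibitor Ddit4 -1.38 and the collagen hydroxylase P4ha2 0.76.

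Fatty acid and triglyceride synthesis genes were positive in 16 of 22 with a median of 0.26, or 0.08 without Lean-HFS 2. Elovl5, a fatty acid elongase, had 0.68 ± 0.30 (SE), Srebf1, the factor that drives lipogenic genes, 0.71 ± 0.38 and its target Fasn 0.65 ± 0.39. Fatty acid oxidation genes were positive in 18 of 29 with a median of 0.12, or 0.05 without Lean-LF 3. The lipase inhibitor Angptl4 had -2.18, the dehydrogenases Acadl and Hadh -1.47 and 0.68 and Cpt1a, which admits fatty acids to mitochondria, -0.33 ± 0.38. Cholesterol synthesis genes were positive in 12 of 26 with a median of -0.01, between -0.12 and 0.08 with 1 library left out. Insig1, which restrains sterol synthesis, had -0.71 and the isomerase Idi1 -0.58.

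Insulin and IGF signalling genes were positive in 13 of 25 with a median of 0.00, between -0.08 and 0.13 with 1 library left out. Akt1, the kinase downstream of the insulin receptor, had 0.54 ± 0.23 (SE), the S6 kinase Rps6kb1 -0.64 and the IGF-binding protein Igfbp5 -1.27. Antioxidant genes were positive in 14 of 27 with a median of 0.06, or -0.13 without Lean-LF 3. Keap1, the inhibitor of NRF2, had 0.75, Sod1, the cytosolic superoxide dismutase, 0.59 and the peroxidase Gpx8 -2.30. Apoptosis and p53 target genes were negative in 14 of 25 with a median of -0.16, or -0.0028 without GDM-LF 2, with Mcl1 at -0.77, Mdm2 at -0.52 and Bcl2l11 at -0.56.

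Clock genes were negative in 9 of 15 with a median of -0.07, between -0.35 without GDM-LF 1 and 0.00 without GDM-LF 3. Nr1d2, the repressor REV-ERB beta, was at 149, 154 and 133 on LF and 236, 182 and 158 on HFS in lean families, and 286, 310 and 258 on LF and 238, 171 and 139 on HFS in GDM families. The diet order was opposite between dams with no overlap, and the interaction was -1.05 ± 0.29 (SE). The output factor Dbp and the clock repressor Bhlhe40 had -0.98 and -0.64.

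**Figure D5:**
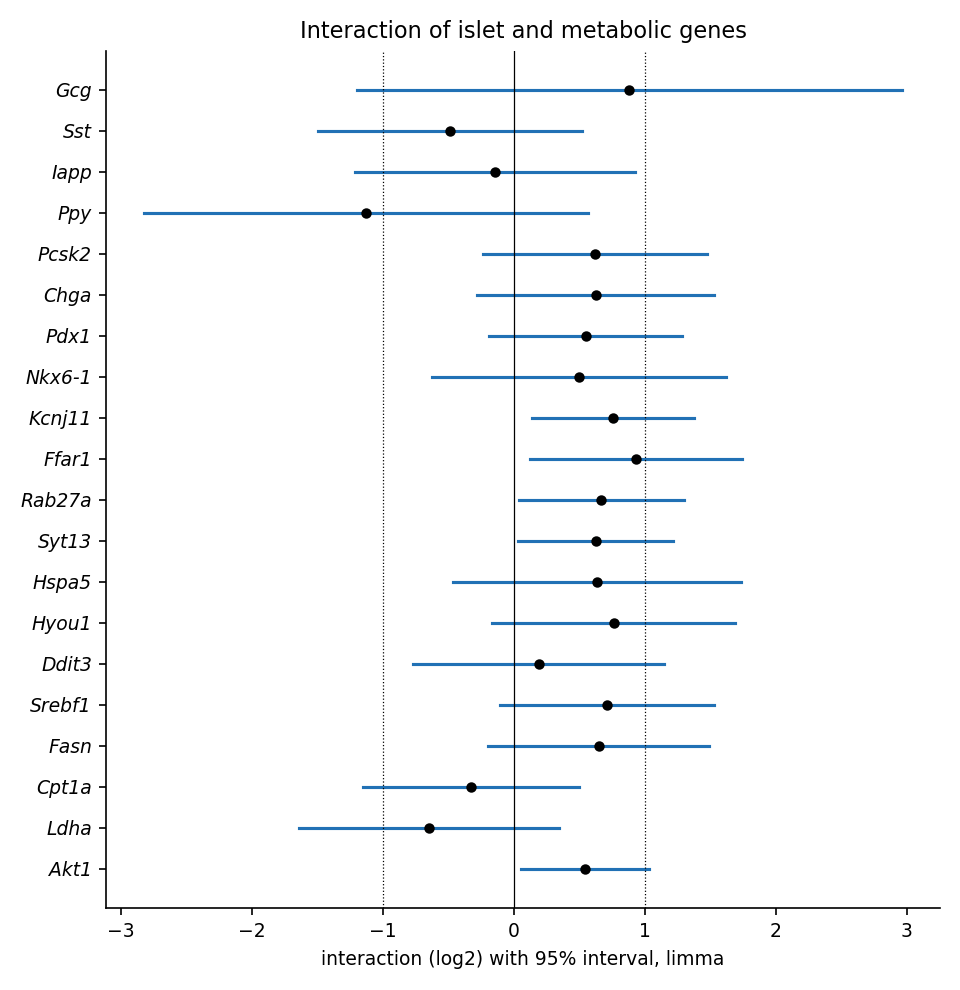
Interaction (x axis, log2) of 20 islet and metabolic genes with limma's 95% interval. Points are estimates, lines intervals, and dotted lines mark -1 and 1. The interval of Kcnj11 runs from 0.14 to 1.37, and most others include 0.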

How the data were processed

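Total RNA was depleted of ribosomal RNA and sequenced from 12 islet libraries with a directional kit, per the labels' protocols. STAR 2.5.1b and HOMER 4.9 are named in the submitters' processing notes. The deposited table was made with HOMER on rn5, counting exons on both strands, and names its values FPKM, per the file headers. Its values are a signal of whole reads times 1 factor per library, not divided by length: 100% of deposited signal values up to 1000 reads came out whole within 0.1 read, at 1.96 to 5.02 reads per unit. The test planned for FPKM was kept on the log scale. Because both strands were counted, a gene and its antisense partner cannot be told apart.

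Values were divided by median-ratio factors (0.83 to 1.27, over 11337 genes above 0 in every library), giving scaled values. The main test was limma 3.58.1 in R 4.3.3, on log2 of the scaled value plus 1, which understates folds of low genes, with 1 mean per group, a mean-variance trend and Benjamini-Hochberg adjustment over all genes. Alternatives included edgeR 4.0.16 and DESeq2 1.42.0 on recovered reads. The fit was tested on simulated data. RefSeq supplied symbols for 16426 entries. The members and the 33 lists were chosen with earlier results of these data known. Named genes are the 12 of lowest p in each direction, provisional symbols left out, since none passed, up to 3 of lowest p per list, and a fixed set; other cell markers are given in part, and 3 genes are not reported here.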

Additional observations from a re-analysis of the deposited data

Results flagged for a closer look

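In 12 named genes every HFS library differed from every LF library in one direction in offspring of lean dams and in the opposite direction in offspring of GDM dams. Over all genes 0.47% have this pattern, and none of the 12 interactions passed limma's adjusted threshold. The positive interactions were 3.68 for Pcdhb6, 1.88 for Slc45a1, 0.75 for Pgm5 and 0.76 for Gne (log2). The negative ones were -1.09 for Ptpn12, -2.72 for Colec12, -1.08 for Ube2d2, -1.55 for Rbm8a, -1.97 for Ifi44, -1.67 for Ccnb1, -1.48 for Plk1 and -1.05 for Nr1d2. Since the genes were named for low p, the pattern is partly fixed by that choice. With 3 libraries per group it can also arise by chance.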

How the results depend on the processing

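In all 26 alternatives 0 genes passed the adjusted threshold; the lowest adjusted p was 0.0556, in DESeq2, for Fmod. Genes under an unadjusted 0.05 numbered 730 with all libraries, 1753 without further scaling, 1337 with library weights, 1561 with Rn45s as a covariate and 260 without the K libraries. Leaving out 1 library gave 362 (without Lean-HFS 3) to 1571 (without GDM-LF 3), with 417 without Lean-LF 1. With the replicate number as a block there were 0 calls and 636 genes under 0.05. Same-numbered libraries did not deviate together from their group means (correlations from -0.50 to 0.20), and Lean-HFS 3 and GDM-LF 2 reached 0.45. With 3 libraries per group this cannot exclude pairing by number, and no label states one. Without the K libraries the interaction reversed for Chga (-0.10), Igfbp5 (0.12), Spink3 (0.31), Reg1a (0.35), Ins1 (-0.15), Ins2 (-0.26), Nkx6-1 (-0.039), Ddit3 (-0.27), Cpt1a (0.26) and Prss1 (0.96). Without further scaling it reversed for Iapp (0.30), Cpt1a (0.11) and Prss1 (0.41). Ddit3 was -0.23 with Rn45s as a covariate and Prss1 0.46 with the acinar level as one. With 1 library left out, Ddit3 ranged from -0.11 to 0.42, Prss1 from -0.73 to 1.31 and Ins2 from -0.00953 to 0.27, each crossing 0. All of these genes were far from the threshold. The precision is limited by 3 libraries per group.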
